A study of Homo sapiens with 16 samples.

Results

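The circadian clock genes PER1, PER2, PER3, CRY1, CRY2, ARNTL, CLOCK, NR1D1, NR1D2 and DBP were examined by RNA-seq in HMC3 cells, an established human cell line that is sold as microglial. They were taken from the deposited count table by gene symbol and make up 10 of its 25370 genes. All 10 passed the filter on low counts and were among the 16004 genes tested. Cells were kept in charcoal-stripped serum and then without serum, each for 24 h, before 24 h of treatment. The 8 conditions, with 2 libraries each, were vehicle, estradiol alone (E2, 0.1 nM), ketamine alone, 2R6R-HNK alone and 2S6S-HNK alone (400 nM each), and E2 (0.1 nM) combined with ketamine, with 2R6R-HNK or with 2S6S-HNK (400 nM). HNK is hydroxynorketamine, a metabolite of the anesthetic ketamine, and the 2R6R and 2S6S forms are enantiomers, which are mirror images of each other. The study asked how ketamine and these metabolites change gene expression in such cells in the absence and presence of E2.

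The 16 libraries held between 55300614 and 81646165 counts. It is not stated that the libraries sharing a condition were grown as separate cultures. Each p-value therefore measures only the spread between these libraries, estimated in part from other genes, and that spread may be technical. The label of the cells was compared with marker genes. Of 12 microglial markers, 4 were tested, whereas AIF1, CX3CR1, P2RY12, TMEM119, ITGAM, PTPRC, SPI1 and TYROBP had between 0 and 7 counts in any library. The defining microglial markers were therefore at or near 0, and HMC3 is used here as the name of the line only. All 6 mesenchymal markers were tested, with summed levels of 19694 to 24414 normalized CPM (read counts scaled to library size) and FN1, which encodes fibronectin, as the most abundant. The 3 neuronal markers summed to between 1.63 and 3.30 CPM, with SNAP25 the most abundant.

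The circadian clock is a transcriptional feedback loop found in most cells. CLOCK and ARNTL (also called BMAL1) pair up and activate genes that carry E-box sequences, among them the PER and CRY genes, whose proteins return to the nucleus and repress CLOCK and ARNTL. A further loop is formed by NR1D1 and NR1D2, the nuclear receptors REV-ERB alpha and beta, which repress ARNTL, and by DBP, an output factor that binds D-box sequences. Because clock transcripts oscillate over the day and all libraries were made at a single time after treatment, a change in mean level and a shift in phase cannot be told apart. In these bulk libraries a lower level in every cell and a smaller share of cells with the transcript cannot be told apart either.

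Sequence upstream of the members was taken from RefSeq promoter windows (GRCh38.p14), in which all 10 members had an entry. PER3, CRY2, ARNTL, CLOCK and NR1D2 had 2 windows each and the others 1. The 250 bases before the transcription start were searched on both strands for the E-box CACGTG, the D-box TTATGTAA or TTACGTAA, the RORE TAGGTCA and the cyclic AMP response element TGACGTCA. None of these motifs contains another. The shares below count single windows, whereas a member with 2 windows was counted by the one with more matches. Shares and members are therefore not like for like. The E-box was in 6.34% of all 35116 windows, and among the members in those of PER1 and NR1D2. The D-box was in 0.940% of windows and in those of PER3 and NR1D2, and the RORE was in 1.61% of windows and in that of CRY2. The cyclic AMP response element was in 1.65% of windows and in 0 of the 10 members' windows. The windows of the 4 members with a match are shown 5′ to 3′ with the motif in capitals, since the levels of these genes are described next. For PER3, CRY2 and NR1D2 the other window had 0 matches to any motif and is not shown. The windows shown are PER1 at chr17:8152405-8152654 on the minus strand, PER3 at chr1:7784041-7784290 on the plus strand, CRY2 at chr11:45847225-45847474 on the plus strand and NR1D2 at chr3:23945871-23946120 on the plus strand.
PER1: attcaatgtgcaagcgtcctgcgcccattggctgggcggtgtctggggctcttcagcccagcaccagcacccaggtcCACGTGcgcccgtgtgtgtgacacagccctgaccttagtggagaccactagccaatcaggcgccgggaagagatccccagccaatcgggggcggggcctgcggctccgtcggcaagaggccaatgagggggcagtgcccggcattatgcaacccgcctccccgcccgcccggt
PER3: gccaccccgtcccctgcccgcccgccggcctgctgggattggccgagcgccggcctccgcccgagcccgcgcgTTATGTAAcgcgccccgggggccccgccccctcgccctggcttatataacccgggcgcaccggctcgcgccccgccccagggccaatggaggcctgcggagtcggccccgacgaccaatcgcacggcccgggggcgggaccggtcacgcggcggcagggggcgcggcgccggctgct
CRY2: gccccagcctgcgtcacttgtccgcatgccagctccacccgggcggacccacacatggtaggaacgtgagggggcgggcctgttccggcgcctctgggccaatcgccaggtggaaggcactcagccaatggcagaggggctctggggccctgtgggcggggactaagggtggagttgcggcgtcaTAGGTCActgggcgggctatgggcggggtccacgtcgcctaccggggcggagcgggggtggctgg
NR1D2: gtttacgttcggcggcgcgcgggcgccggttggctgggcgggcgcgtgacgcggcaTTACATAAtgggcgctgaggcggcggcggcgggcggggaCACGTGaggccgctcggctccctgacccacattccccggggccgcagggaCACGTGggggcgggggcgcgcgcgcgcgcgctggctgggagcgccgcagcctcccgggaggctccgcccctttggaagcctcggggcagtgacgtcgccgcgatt
In the PER1 window the E-box spanned bases 173 to 168 before the start, and in the PER3 window the D-box spanned bases 177 to 170. The NR1D2 window held E-boxes at bases 155 to 150 and at 105 to 100, beside a D-box on the opposite strand at 194 to 187. The RORE of CRY2 lay at bases 65 to 59. A match describes the letters of a window only, and no binding was measured.

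On the scale of mean CPM per kilobase of transcript, which allows genes to be compared, CRY1 had the highest level at 15.4, followed by PER1 at 7.19, CRY2 at 5.49 and NR1D2 at 5.41. NR1D1 (2.86), PER3 (2.77), ARNTL (2.69) and CLOCK (2.49) formed a middle group, and DBP (1.09) and PER2 (1.004) were the lowest. The members also differed in how far they moved. From the lowest to the highest condition mean, PER3 spanned 1.28 on the log2 scale, DBP 1.27, PER1 and PER2 1.23 each, CLOCK 1.20, NR1D2 0.97, CRY1 0.95, NR1D1 0.74, CRY2 0.66 and ARNTL 0.64. Vehicle was the highest condition for CLOCK, NR1D2 and ARNTL and the lowest for PER1, CRY2, NR1D1 and DBP, while E2+ketamine was the lowest for PER2, PER3, CRY1 and CLOCK and 2R6R-HNK for ARNTL and NR1D2. In every comparison with vehicle, fold changes of all genes followed the GC content of their transcripts. For this reason a fold change after correction for GC content and length is given beside the measured fold change where the correction ends a call or turns its direction.

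**Figure D1:**
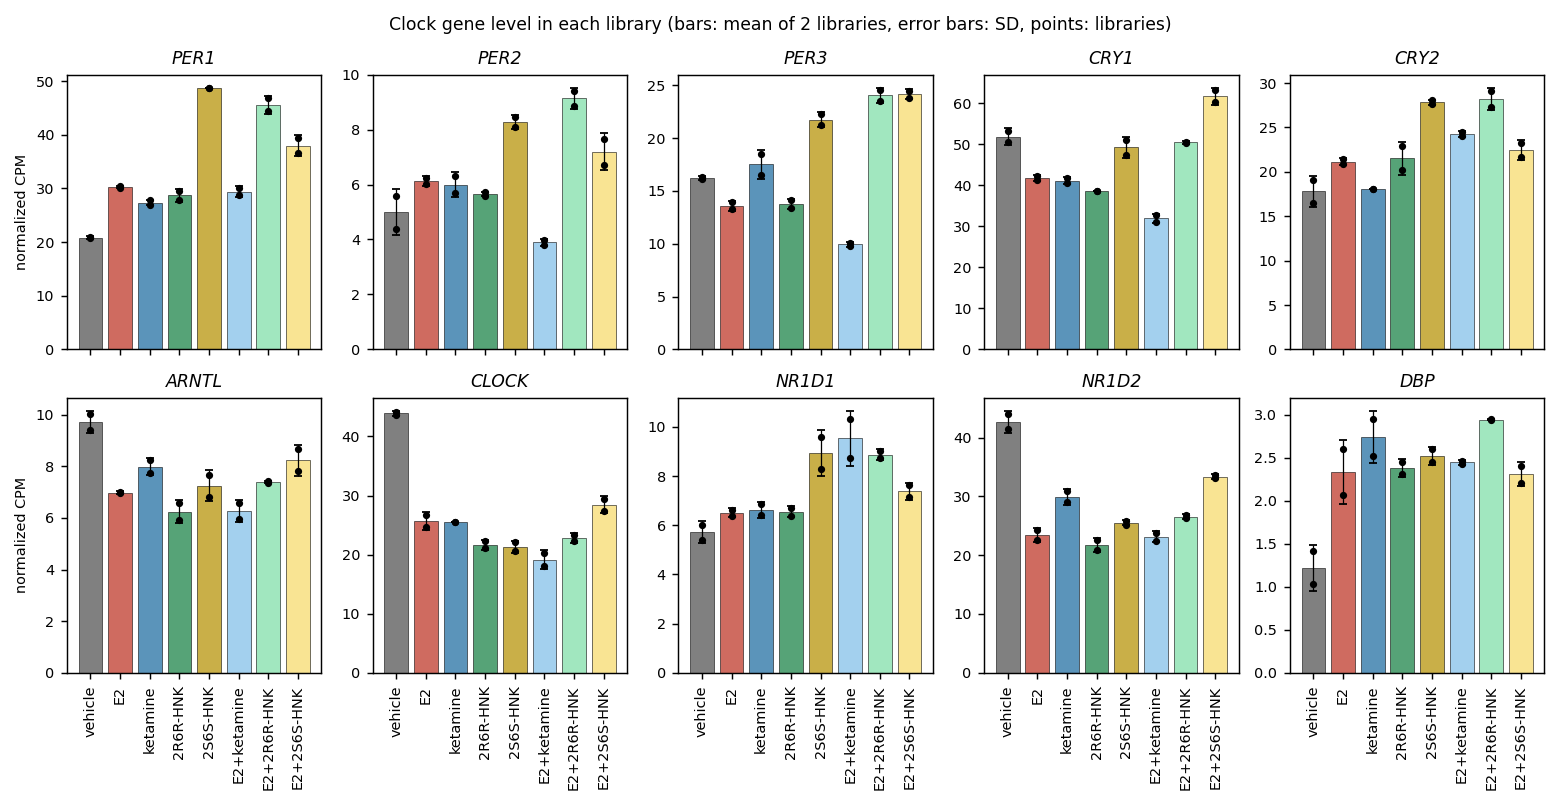
Normalized CPM of each clock gene (y axis) in the 8 conditions (x axis), with bars for the mean of 2 libraries, error bars for the SD and points for the libraries. CLOCK and NR1D2 stand highest in vehicle, PER1 stands highest in 2S6S-HNK (48.7 and 48.8), and PER3 is lowest in E2+ketamine (9.80 and 10.1).

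CLOCK and ARNTL, the activators of the loop, were both lower than in vehicle in all 7 treatments. CLOCK, the larger of them in counts, was at 43.6 and 44.2 CPM in the vehicle libraries and at 26.8 and 24.7 with E2. It was at 25.4 in both ketamine libraries, at 22.2 and 21.1 with 2R6R-HNK and at 22.1 and 20.6 with 2S6S-HNK. With E2 added, CLOCK read 20.3 and 18.0 for ketamine, 22.3 and 23.4 for 2R6R-HNK and 29.5 and 27.4 for 2S6S-HNK. Every treated library was thus below both vehicle libraries, and the E2+2S6S-HNK libraries were the nearest to them. The fall in CLOCK ranged from a log2 fold change of -0.62 ± 0.06 (SE) in E2+2S6S-HNK to -1.20 ± 0.06 in E2+ketamine, with an adjusted p of 1.147e-13 or less in each treatment (edgeR quasi-likelihood F test, adjusted by Benjamini-Hochberg across the 16004 genes, n = 2 libraries per condition). After the correction for GC content and length CLOCK was still called lower in all 7, with log2 fold changes between -0.43 and -0.23.

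ARNTL read 10.0 and 9.42 CPM in vehicle and 6.95 and 7.02 in E2. Ketamine libraries were at 8.23 and 7.75, those of 2R6R-HNK at 5.92 and 6.58 and those of 2S6S-HNK at 7.68 and 6.82. The E2+ketamine libraries gave 5.96 and 6.58 for ARNTL, the E2+2R6R-HNK libraries 7.42 and 7.36 and the E2+2S6S-HNK libraries 7.80 and 8.66. Here too no treated library reached the vehicle range. ARNTL fell most in 2R6R-HNK (-0.64 ± 0.10, adjusted p = 9.769e-08) and E2+ketamine (-0.63 ± 0.10), and least in E2+2S6S-HNK (-0.24 ± 0.09, adjusted p = 0.0241). Corrected for GC content and length, the fall of ARNTL passed the test in 3 of the 7 treatments, E2 (-0.29), 2R6R-HNK (-0.42) and E2+ketamine (-0.33), and no longer in ketamine (-0.16), 2S6S-HNK (-0.22), E2+2R6R-HNK (-0.20) or E2+2S6S-HNK (-0.14).

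The PER genes, which encode the repressors that accumulate and are degraded each day, were all highest in conditions with 2S6S-HNK or with E2+2R6R-HNK. In vehicle PER1 was at 21.0 and 20.7 CPM, against 30.4 and 30.1 with E2, 27.7 and 27.0 with ketamine and 29.5 and 27.9 with 2R6R-HNK. It was at 48.7 and 48.8 with 2S6S-HNK, at 28.7 and 30.1 with E2+ketamine, at 44.4 and 46.8 with E2+2R6R-HNK and at 39.4 and 36.6 with E2+2S6S-HNK. The treatments thus lay in separate ranges above vehicle, a lower range of 4 treatments between 27.0 and 30.4 CPM and an upper range of 3 between 36.6 and 48.8. PER1 rose in all 7 treatments, by a log2 fold change of 1.23 ± 0.05 in 2S6S-HNK (adjusted p = 7.802e-26), 1.13 ± 0.05 in E2+2R6R-HNK and 0.87 ± 0.05 in E2+2S6S-HNK, and by 0.39 to 0.54 in the others. With the correction for GC content and length, the rise was still called in these 3 conditions (0.72, 0.56 and 0.57). It was no longer called in E2 (0.10), ketamine (0.00) or 2R6R-HNK (-0.02), and in E2+ketamine PER1 was called lower (-0.16, adjusted p = 0.00979).

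PER2 had the fewest counts of the PER genes, 226 to 674 per library. Its vehicle libraries read 5.59 and 4.40 CPM, a wider spread than in any other condition, and its E2 libraries 6.25 and 6.00. It read 5.68 and 6.33 in ketamine, 5.60 and 5.72 in 2R6R-HNK and 8.08 and 8.45 in 2S6S-HNK. In the presence of E2, PER2 was at 3.82 and 3.99 with ketamine, 8.85 and 9.41 with 2R6R-HNK and 6.71 and 7.67 with 2S6S-HNK. E2+ketamine was the only treatment with PER2 below vehicle in both libraries. PER2 fell there (log2 fold change -0.36 ± 0.12, adjusted p = 0.00747), and rose by 0.73 ± 0.11 in 2S6S-HNK, 0.87 ± 0.11 in E2+2R6R-HNK and 0.52 ± 0.11 in E2+2S6S-HNK. These 4 calls held after the correction for GC content and length. The smaller rises in E2 (0.29, adjusted p = 0.0215) and ketamine (0.26, adjusted p = 0.0358) did not, with corrected values of 0.17 and 0.11, and 2R6R-HNK gave 0.18 with a 95% interval of -0.05 to 0.41.

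PER3 spanned the widest range of the members. It was at 16.1 and 16.3 CPM in vehicle, 13.9 and 13.3 in E2, 16.5 and 18.5 in ketamine and 14.1 and 13.4 in 2R6R-HNK. The 2S6S-HNK libraries were at 21.2 and 22.3, and those of E2+ketamine at 9.80 and 10.1. PER3 reached 23.5 and 24.6 in E2+2R6R-HNK and 23.8 and 24.5 in E2+2S6S-HNK, which overlapped each other. Between the E2+ketamine and E2+2S6S-HNK means lay a 2.43-fold difference. Relative to vehicle, PER3 fell in E2+ketamine (-0.70 ± 0.07, adjusted p = 3.078e-12), E2 (-0.26 ± 0.07) and 2R6R-HNK (-0.24 ± 0.07) and rose in 2S6S-HNK (0.42 ± 0.07), E2+2R6R-HNK (0.57 ± 0.07) and E2+2S6S-HNK (0.57 ± 0.07, adjusted p = 1.246e-10). The correction for GC content and length enlarged the 3 rises (0.61, 0.72 and 0.68) and kept the fall in E2+ketamine (-0.38). It ended the calls in E2 (-0.10) and 2R6R-HNK (0.01) and added a rise in ketamine (0.19, adjusted p = 0.0135, from 0.11 uncorrected).

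The cryptochromes CRY1 and CRY2 are the partners of the PER proteins in repression. As counted, CRY1 was called lower and CRY2 higher in E2, 2R6R-HNK and E2+ketamine, and both were called higher in E2+2S6S-HNK. CRY1 was at 50.4 and 53.3 CPM in vehicle and lower in E2 (42.3 and 41.2), ketamine (40.6 and 41.7) and 2R6R-HNK (38.7 in both libraries). The 2S6S-HNK libraries were at 51.01 and 47.5 and those of E2+2R6R-HNK at 50.3 and 50.6, and both overlapped the vehicle range. The lowest CRY1 was in E2+ketamine (31.2 and 32.7) and the highest in E2+2S6S-HNK (63.2 and 60.2). CRY1 fell in E2+ketamine (log2 fold change -0.70 ± 0.05, adjusted p = 1.477e-18), E2, ketamine and 2R6R-HNK (-0.31 to -0.42), and rose by 0.25 ± 0.04 in E2+2S6S-HNK. Corrected for GC content and length, these falls were smaller and still called, at -0.41, -0.14, -0.23 and -0.22 in this order. The corrected rise in E2+2S6S-HNK was 0.35. No call was made in 2S6S-HNK (-0.08, 95% interval -0.17 to 0.02) or E2+2R6R-HNK (-0.04, -0.13 to 0.05). Both turned to called rises after the correction for GC content and length (0.11 and 0.14), and upper-quartile normalization gave 0.04 for E2+2R6R-HNK, which did not pass the test.

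CRY2 had its highest levels in 2S6S-HNK (27.6 and 28.1 CPM) and E2+2R6R-HNK (27.3 and 29.1) and its lowest in vehicle (19.1 and 16.5) and ketamine (18.1 in both libraries). Intermediate values were found in E2 (21.4 and 20.8), 2R6R-HNK (20.2 and 22.9), E2+ketamine (24.5 and 24.1) and E2+2S6S-HNK (23.3 and 21.6). Ketamine and vehicle overlapped, and all other treatments were above vehicle in both libraries. CRY2 rose in 6 treatments, led by E2+2R6R-HNK (0.66 ± 0.06, adjusted p = 5.117e-13) and 2S6S-HNK (0.64 ± 0.07). In ketamine the log2 fold change was 0.02 with an interval of -0.11 to 0.16, and it was -0.08 without the second vehicle library, where the test was not passed either. The rise was still called after correction in 2S6S-HNK (0.30), E2+2R6R-HNK (0.28) and E2+2S6S-HNK (0.17). It was not in E2 (-0.04), 2R6R-HNK (-0.05) or E2+ketamine (0.02), and ketamine was called lower (-0.24).

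Of the REV-ERB receptor genes NR1D1 and NR1D2, NR1D2 was called lower in all 7 treatments as counted and NR1D1 higher in 4. NR1D2 was at 43.97 and 41.4 CPM in vehicle, 24.3 and 22.6 in E2, 29.0 and 30.9 in ketamine and 22.6 and 20.9 in 2R6R-HNK. It was at 25.2 and 25.8 in 2S6S-HNK, 22.5 and 23.8 in E2+ketamine, 26.8 and 26.3 in E2+2R6R-HNK and 33.6 and 33.1 in E2+2S6S-HNK. As for CLOCK, all treated libraries were below vehicle and E2+2S6S-HNK was the nearest to it. NR1D2 fell in all 7 treatments, from -0.35 ± 0.05 in E2+2S6S-HNK to -0.97 ± 0.06 in 2R6R-HNK (adjusted p = 5.309e-21). After the correction for GC content and length the fall was called in E2 (-0.35), 2R6R-HNK (-0.36), 2S6S-HNK (-0.18) and E2+ketamine (-0.13), and not in ketamine (-0.11), E2+2R6R-HNK (-0.09) or E2+2S6S-HNK (-0.05).

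NR1D1 was at 5.41 and 6.03 CPM in vehicle, and at 6.63 and 6.38 in E2, 6.40 and 6.86 in ketamine and 6.70 and 6.38 in 2R6R-HNK. Higher values were found in 2S6S-HNK (8.27 and 9.60), E2+ketamine (8.75 and 10.3), E2+2R6R-HNK (8.73 and 9.02) and E2+2S6S-HNK (7.63 and 7.14). These last 4 conditions passed the test, with log2 fold changes of 0.65, 0.74, 0.63 and 0.37 (SE 0.10 each; adjusted p = 0.00179 or less). In E2, ketamine and 2R6R-HNK the values were 0.19, 0.21 and 0.20 and did not pass, although both libraries were above vehicle. After the correction for GC content and length NR1D1 passed in none of the 7 treatments (edgeR; smallest adjusted p = 0.0597, in 2S6S-HNK at 0.22), and its sign turned in E2 (-0.16), ketamine (-0.08) and 2R6R-HNK (-0.22). Its exons overlap those of THRA, the thyroid hormone receptor alpha gene on the opposite strand, over 473 bases. The sources used here do not give the strandedness of the counting or its handling of reads in shared bases. The level of NR1D1 may therefore include THRA reads or lack NR1D1 reads from these bases. THRA itself rose in 6 of the 7 treatments, by 0.32 to 0.54 as counted, and gave 0.09 in E2+2S6S-HNK. After the correction THRA was between -0.13 and 0.03, with no rise called, and was called lower in E2+2R6R-HNK (-0.13) and E2+2S6S-HNK (-0.13).

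DBP, the D-box output factor, was the member with the fewest counts, 63 to 245 per library. It was at 1.03 and 1.41 CPM in vehicle, 2.60 and 2.07 in E2, 2.52 and 2.95 in ketamine, 2.45 and 2.31 in 2R6R-HNK and 2.45 and 2.60 in 2S6S-HNK. With E2, DBP was at 2.47 and 2.42 for ketamine, 2.94 and 2.95 for 2R6R-HNK and 2.40 and 2.21 for 2S6S-HNK. All 14 treated libraries were above both vehicle libraries, and in order of level each treatment overlapped the next. DBP rose in all 7, from 0.92 ± 0.19 in E2+2S6S-HNK (adjusted p = 2.692e-05) to 1.27 ± 0.18 in E2+2R6R-HNK (adjusted p = 1.942e-08). The rise held after the correction for GC content and length in ketamine (0.75), 2S6S-HNK (0.46), E2+2R6R-HNK (0.62) and E2+2S6S-HNK (0.55), and was not called in E2 (0.45), 2R6R-HNK (0.37) or E2+ketamine (0.20). DBP shares 661 exon bases with SPHK2 on the opposite strand. SPHK2, a sphingosine kinase, was at 17.9 to 31.2 CPM and rose in 5 treatments as counted, by 0.29 to 0.69, with 0.09 in ketamine and 0.05 in E2+2S6S-HNK. After the correction SPHK2 was below 0 in all 7 (-0.35 to -0.10) and called lower in ketamine, 2S6S-HNK, E2+2R6R-HNK and E2+2S6S-HNK. The strandedness of the counting and its handling of reads in shared bases are not given. The level of DBP may therefore include SPHK2 reads from these bases or lack DBP reads from them.

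**Figure D2:**
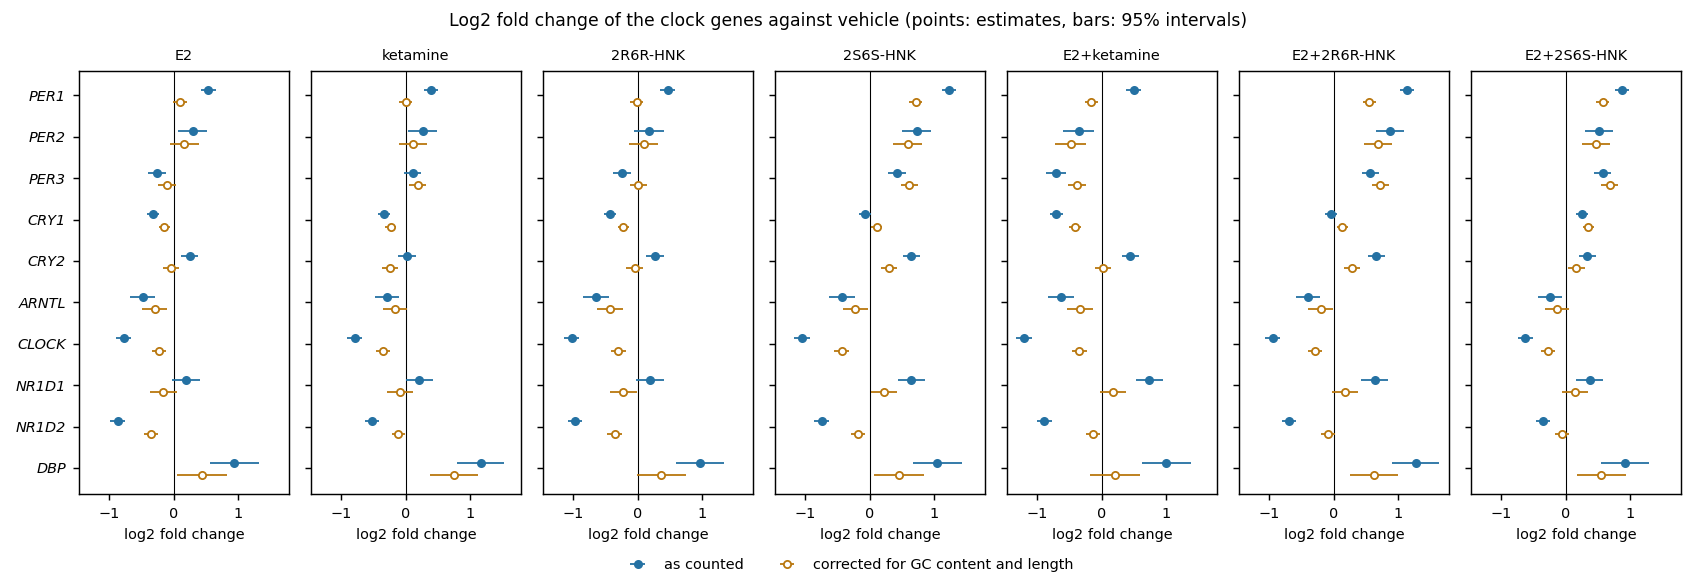
Log2 fold change of each clock gene against vehicle (x axis) in the 7 treatments, as counted (filled points) and corrected for GC content and length (open points), with bars for 95% intervals. CLOCK lies below 0 on both scales in every treatment (-1.20 to -0.62 as counted, -0.43 to -0.23 corrected), and PER1 lies highest in 2S6S-HNK (1.23).

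The members called at an adjusted p of 0.05 were then counted for each treatment. The 7 comparisons share the vehicle libraries, so they are given side by side and are not independent. E2 alone changed 9 of the 10 members, 4 up and 5 down, while 29.9% of all tested genes were called higher and 32.7% lower. In ketamine 3 rose and 4 fell, against 26.8% and 32.5% of all genes, and in 2R6R-HNK 3 rose and 5 fell, against 31.7% and 34.9%. In 2S6S-HNK 6 rose and 3 fell, with 32.1% of all genes higher and 35.8% lower. With E2+ketamine 4 rose and 6 fell (34.3% and 37.4% of all genes), with E2+2R6R-HNK 6 rose and 3 fell (33.4% and 36.3%), and with E2+2S6S-HNK 7 rose and 3 fell (24% and 35.7%). In each comparison more of the 16004 tested genes were thus called than not, and the members' counts are read against that background. Treated and vehicle libraries did not overlap in 67 of the 70 pairs of member and treatment, where 78.0% to 84.4% of all tested genes did not overlap either, depending on the treatment.

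Fewer members also passed a fold limit, a called log2 change of 1 or more up or down. CLOCK passed it in 2R6R-HNK, where 3.75% of all genes did, and DBP in ketamine, where 3.56% did. PER1, CLOCK and DBP passed in 2S6S-HNK (9.08% of all genes), CLOCK and DBP in E2+ketamine (11.0%), and PER1 and DBP in E2+2R6R-HNK (11.5%). No member reached it in E2 or in E2+2S6S-HNK, where 1.81% and 5.85% of all genes did, although at an adjusted or an unadjusted p of 0.05 without the limit edgeR called 9 members in E2 and all 10 in E2+2S6S-HNK. DESeq2 also gave 0 members with the limit in E2 and in E2+2S6S-HNK. After the correction for GC content and length, 4 members were called in E2 (36.7% of all genes), 5 in ketamine (48.7%), 4 in 2R6R-HNK (44.03%) and 8 in 2S6S-HNK (56.2%). In each combination with E2 it called 7, beside 51.6% of all genes with ketamine, 58.9% with 2R6R-HNK and 56.1% with 2S6S-HNK. The members' corrected calls were all falls in E2, 2R6R-HNK and E2+ketamine. In ketamine 2 rose and 3 fell, in 2S6S-HNK 6 and 2, and in E2+2R6R-HNK and E2+2S6S-HNK 6 and 1 each. Rises made up 36.9% to 46.4% of the corrected calls among all genes. No member was called with the fold limit after the correction, which 0.7998% to 5.70% of all genes passed. As counted and corrected calls shared their direction in 37 of the 62 member results called as counted.

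The relation of fold change to GC content was measured over the 15358 tested genes with an annotated transcript. Spearman's correlation across genes was 0.764 in E2, 0.649 in ketamine, 0.758 in 2R6R-HNK, 0.661 in 2S6S-HNK, 0.779 in E2+ketamine, 0.673 in E2+2R6R-HNK and 0.451 in E2+2S6S-HNK. Genes are not independent replicates, so no p-value is given. The members span this range from CLOCK (37.6% GC) and NR1D2 (38.3%) over ARNTL (45.7%), CRY1 (46.0%), PER3 (46.5%) and PER2 (52.4%) to CRY2 (56.7%), NR1D1 (58.9%), PER1 (62.7%) and DBP (65.2%), with a median of 49.5% for the genes tested. Across the 10 members the same correlation was between 0.891 and 0.988 in the 7 comparisons. With corrected fold changes it was still 0.503 to 0.794 across the members, beside -0.027 to 0.072 across all genes. The order was not a clean split, since PER3 and CRY1, below the median in GC content, were called higher in some treatments and PER2, above it, was called lower in E2+ketamine. The correction takes out cellular changes linked to GC content as well as bias from library preparation, and the part of either was not tested.

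**Figure D3:**
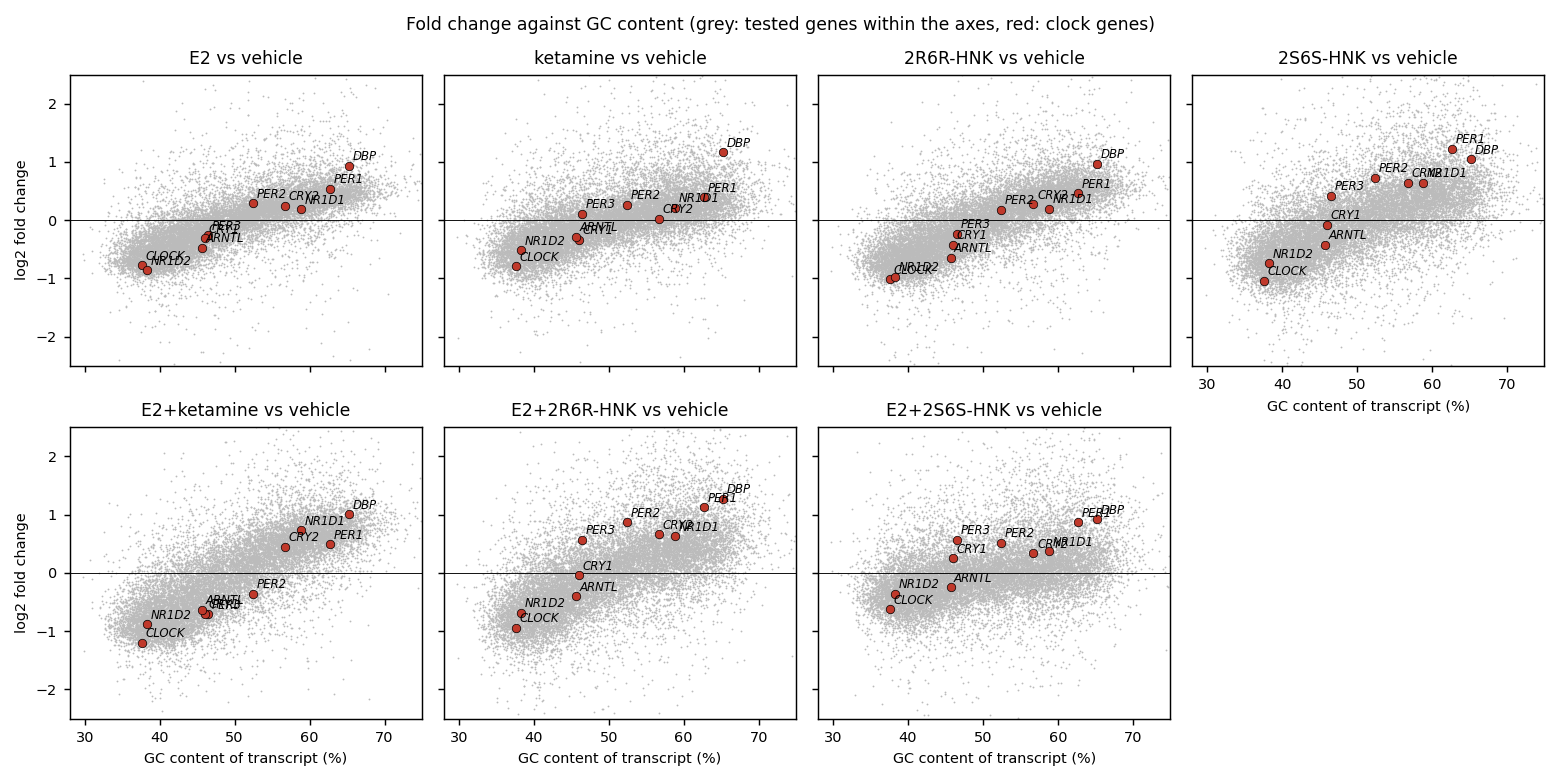
Log2 fold change against vehicle (y axis) and transcript GC content in percent (x axis) for all tested genes within the axes (grey) and the clock genes (red), with a panel for each treatment. The grey cloud tilts upward in each panel (Spearman's correlation 0.451 to 0.779), CLOCK and NR1D2 lie at its lower left, and DBP and PER1 at its upper right.

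Members were also set against the genes whose GC content lay within 1 percentage point of their own. In 2S6S-HNK the fold change of PER1 was above that of 90.4% of its 742 neighbours, whose median was 0.46. In the other treatments PER1 was above 22.8% (E2+ketamine) to 85.4% (E2+2R6R-HNK and E2+2S6S-HNK) of them, with 44.1% in 2R6R-HNK. PER3 was above 90.1% of its 1047 neighbours in 2S6S-HNK, 92.1% in E2+2R6R-HNK and 92.0% in E2+2S6S-HNK, with neighbour medians of -0.19, -0.18 and -0.12. In E2+ketamine PER2 was above only 10.4% of its 986 neighbours and PER3 above 15.95%. In 2R6R-HNK PER2 and PER3 lay near the middle, above 52.7% and 47.8%. CLOCK was above 6.30% of its 921 neighbours in 2R6R-HNK, 9.01% in 2S6S-HNK and 6.19% in E2+ketamine. In the other treatments CLOCK was above 14.7% (ketamine) to 23.6% (E2+2R6R-HNK). NR1D2 was above 8.67% of its 1061 neighbours in 2R6R-HNK and 9.80% in E2, but above 49.0% in both E2+2R6R-HNK and E2+2S6S-HNK. DBP was above 77.8% to 93.3% of its 477 neighbours, with the highest share in ketamine. Less extreme shares were found for CRY1 (20.2% in E2+ketamine to 82.9% in E2+2S6S-HNK) and CRY2 (26.6% in ketamine to 77.3% in E2+2R6R-HNK). NR1D1 ranged from 20.2% in 2R6R-HNK to 73.2% in 2S6S-HNK, and ARNTL from 13.97% in 2R6R-HNK to 37.8% in E2+2S6S-HNK. Placement of this kind is a description and carries no test.

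Ketamine and its metabolites were compared with each other at the same dose and time in 6 pairs, and p-values were adjusted over all genes and also over all genes and the 6 pairs together. Both adjustments called the same number of members in each pair. The enantiomers without E2 gave a difference of a single direction. Of the 10 members, 7 were lower in 2R6R-HNK than in 2S6S-HNK and none was higher. Of all genes 43.5% were called in either direction, 3591 of them lower and 3368 higher. PER1 differed by -0.76 (95% interval -0.86 to -0.66; adjusted p over the 6 pairs = 5.014e-18), PER3 by -0.66 (-0.80 to -0.52), PER2 by -0.55 (-0.76 to -0.33) and NR1D1 by -0.45 (-0.65 to -0.24). CRY2 (-0.37), CRY1 (-0.35) and NR1D2 (-0.23) were lower as well. ARNTL (-0.22, interval -0.42 to -0.01), CLOCK (0.02, -0.10 to 0.15) and DBP (-0.08, -0.42 to 0.26) did not pass, which does not show that the enantiomers act alike on them. All 7 calls held after the correction for GC content and length, which called 45.4% of all genes, with PER1 at -0.73 and PER3 at -0.60. In this pair the fold changes of all genes hardly followed GC content (Spearman's correlation 0.0327 across 15358 genes).

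Between ketamine and 2S6S-HNK the test called 8 members, where it called 46.1% of all genes. PER1 (-0.83, interval -0.93 to -0.73), CRY2 (-0.62), PER2 (-0.46), NR1D1 (-0.43), PER3 (-0.31) and CRY1 (-0.26) were lower with ketamine, and these 6 calls held after the correction. CLOCK (0.25) and NR1D2 (0.23) were higher with ketamine and were not called after it (0.08 and 0.07). ARNTL (0.14, -0.05 to 0.34) and DBP (0.12, -0.21 to 0.45) did not pass in this pair. Against 2R6R-HNK, ketamine differed in 5 members, where 45.4% of all genes were called. NR1D2 (0.46), ARNTL (0.36), PER3 (0.35) and CLOCK (0.23) were higher and CRY2 (-0.25) lower with ketamine, and the call of CLOCK was lost after the correction (-0.06), while PER3 (0.17) and NR1D2 (0.25) became smaller. For PER1 (-0.07, interval -0.18 to 0.03), PER2 (0.09, -0.13 to 0.30), CRY1 (0.09, -0.00 to 0.18), NR1D1 (0.02, -0.19 to 0.22) and DBP (0.20, -0.13 to 0.52) no difference between ketamine and 2R6R-HNK was called.

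In the presence of E2 the order of the drugs was another. E2+ketamine was lower than E2+2R6R-HNK in 8 members and higher in none, with 52.0% of all genes called. PER3 (-1.27, interval -1.41 to -1.13) and PER2 (-1.23, -1.45 to -1.001) differed most, followed by CRY1 (-0.66) and PER1 (-0.63), and these 4 and CRY2 (-0.22) were still called after the correction. CLOCK (-0.25), ARNTL (-0.24) and NR1D2 (-0.20) were not called after it (-0.05, -0.13 and -0.04). NR1D1 (0.10, -0.09 to 0.30) did not pass, and DBP (-0.27, -0.60 to 0.06) passed only after the correction (-0.42). Between E2+ketamine and E2+2S6S-HNK 8 members differed as well, 7 of them lower in E2+ketamine and NR1D1 higher (0.37), against 66.8% of all genes. The largest differences of this pair were in PER3 (-1.28, interval -1.42 to -1.14), CRY1 (-0.95, -1.04 to -0.86) and PER2 (-0.88, -1.11 to -0.65). In it CRY2 (0.11, -0.02 to 0.24) and DBP (0.08, -0.26 to 0.42) were not called, and after the correction 5 members were called, all lower in E2+ketamine, with 55.5% of all genes. The correction ended the calls of CLOCK (-0.57, corrected -0.07), NR1D2 (-0.53, -0.08), ARNTL (-0.39, -0.19) and NR1D1 (0.37, 0.03), turned CRY2 to a called -0.14 and moved PER1 from -0.37 to -0.73.

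Between the enantiomers in the presence of E2, 7 members were called, where 54.0% of all genes were. PER2 (0.35), CRY2 (0.33), PER1 (0.26) and NR1D1 (0.26) were higher and NR1D2 (-0.33), CLOCK (-0.32) and CRY1 (-0.29) lower in E2+2R6R-HNK than in E2+2S6S-HNK. PER3, which separated the enantiomers without E2, differed here by -0.01 with an interval of -0.13 to 0.12. ARNTL (-0.15, -0.34 to 0.04) and DBP (0.35, 0.02 to 0.67) were not called either. The fold changes of this pair followed GC content across all genes (Spearman's correlation 0.685), and after the correction CRY1 (-0.21) was the only member called, with 29.2% of all genes called. The calls of PER1 (-0.02), PER2 (0.22), CRY2 (0.11), NR1D1 (0.03), NR1D2 (-0.04) and CLOCK (-0.02) were lost.

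**Figure D4:**
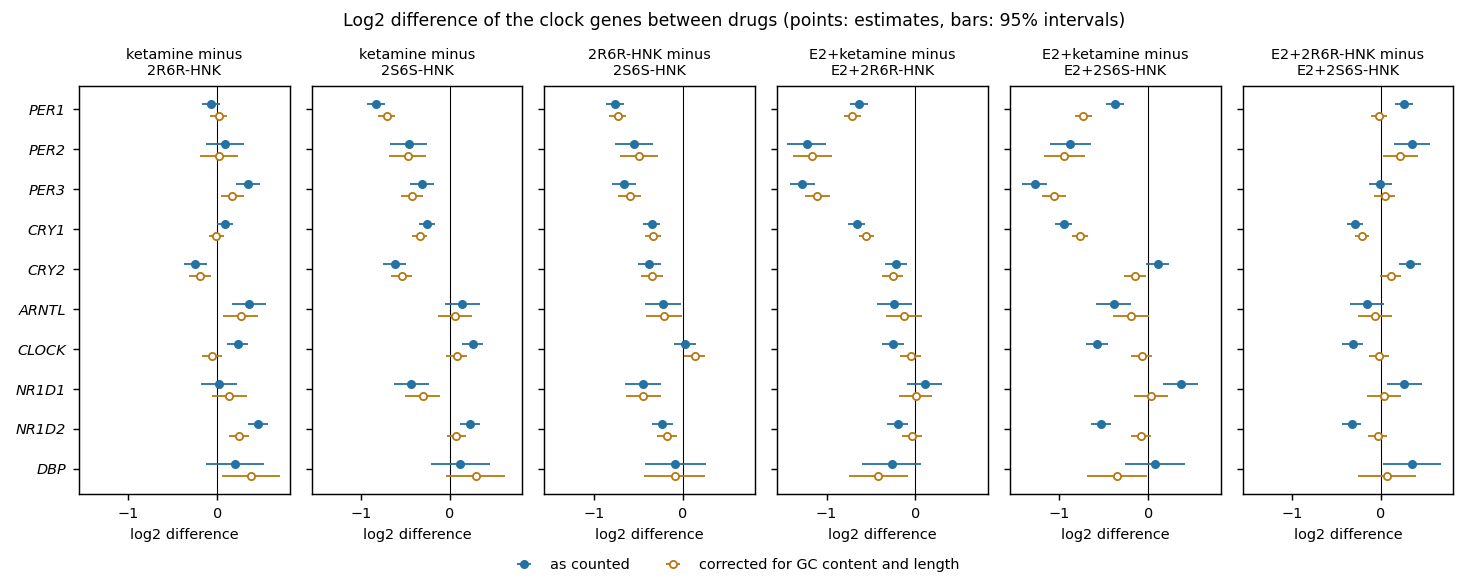
Log2 difference of each clock gene between drugs (x axis) for the 6 pairs, as counted (filled points) and corrected for GC content and length (open points), with bars for 95% intervals. PER1, PER2 and PER3 lie left of 0 on both scales in the pair of enantiomers without E2, and PER2 and PER3 lie beyond -1 where E2+ketamine is compared with E2+2R6R-HNK (-1.23 and -1.27).

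Whether E2 alters the effect of a drug was tested as an interaction, which subtracts the drug effect seen without E2 from the one seen with E2. An interaction with ketamine was called in 6 members, with 37.5% of all genes, with 2R6R-HNK in 7, with 56.6%, and with 2S6S-HNK in all 10, with 65.1%. For PER3, ketamine without E2 gave 0.11 against vehicle, and the interaction was -0.56 ± 0.10. For the same gene 2R6R-HNK gave -0.24 without E2 and an interaction of 1.06 ± 0.10 (adjusted p = 1.564e-13), which passed after the correction as well (0.81). All 3 interactions use the same vehicle and E2 libraries, so they are not independent, and vehicle was the highest condition for CLOCK and NR1D2. The interactions of CLOCK (0.36, 0.84 and 1.19) and NR1D2 (0.49, 1.15 and 1.25) with ketamine, 2R6R-HNK and 2S6S-HNK were all above 0. E2 and each drug alone had lowered these genes, and each combination lowered them by less than the sum of its parts. They stayed above 0 and were called after the correction (CLOCK 0.24, 0.23 and 0.38; NR1D2 0.33, 0.62 and 0.48). After the correction 8, 9 and 5 members were called for the 3 drugs in this order, with 36.1%, 43.1% and 39.5% of all genes. Calls gained by it were CRY2 (0.30) and NR1D1 (0.42) for ketamine. For 2R6R-HNK they were PER1 (0.47, from 0.13), CRY2 (0.36) and NR1D1 (0.56).

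Other genes of the clock pathway were read from a list of 28, of which 25 had enough counts to be tested. The test called 9 up and 10 down in E2, 6 and 8 in ketamine, 7 and 9 in 2R6R-HNK, 9 and 8 in 2S6S-HNK, 8 and 10 in E2+ketamine, 10 and 8 in E2+2R6R-HNK and 8 and 8 in E2+2S6S-HNK. Of all genes tested, 24% to 34.3% were called higher and 32.5% to 37.4% lower, depending on the treatment. The counts of pathway genes are read against that background, and no excess over it was tested. The median log2 fold change of the 25 pathway genes was between -0.02 and 0.06, beside -0.06 to 0.00 for all genes tested. With the fold limit, TEF and KLF15 rose in 2S6S-HNK and in E2+2R6R-HNK, and NAMPT fell in E2+ketamine. TEF, a D-box factor of the same family as DBP, was at 11.4 and 12.99 CPM in vehicle, 29.5 and 31.3 in 2S6S-HNK and 30.8 and 31.0 in E2+2R6R-HNK. Its log2 fold changes were 1.32 ± 0.07 and 1.34 ± 0.07 (adjusted p = 7.727e-23 and 1.663e-23), and 0.98 and 0.96 after the correction. These are also the conditions in which PER1 was highest. KLF15, a Krüppel-like factor with clock-driven expression in other tissues, had 46 to 143 counts per library and rose by 1.004 ± 0.24 and 1.10 ± 0.24. The corrected rise of KLF15 was 0.54 in 2S6S-HNK, which did not pass (adjusted p = 0.057), and 0.60 in E2+2R6R-HNK.

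NAMPT, the rate-limiting enzyme of the NAD salvage pathway, fell from 61.1 and 59.1 CPM in vehicle to 29.6 and 26.8 in E2+ketamine (-1.09 ± 0.05, and -0.22 after the correction). NAMPT was also called lower in the other 6 treatments as counted, and after the correction in E2 (-0.16) and 2S6S-HNK (-0.15) only among these. By role, the 4 other repressors gave 2 or 3 called higher in each treatment and a single one called lower, in E2. Of the 2 other activators, ARNTL2 was called lower in each treatment and NPAS2 was called higher in E2+2R6R-HNK. Corrected for GC content and length, ARNTL2 was called lower in 3 of the 7 treatments and NPAS2 was not called. Of the 7 kinase and ubiquitin ligase genes tested 2 or 3 were called higher and 2 to 4 lower. GSK3A, called higher in 5 treatments, was called lower in all 7 after the correction. It took FBXW11 from lower in 4 to higher in 6 and BTRC from lower in 6 to no call. CSNK1E went from higher in 7 to higher in 3 and lower in 3. The others of this list kept their direction in fewer treatments.

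How the members varied with one another was described over the 8 condition means, which share a normalization and 2 libraries each, so no p-value is given. These means were not corrected for GC content, which the fold changes against vehicle followed. On the log2 scale ARNTL and NR1D2 had a Pearson's r of 0.975 (n = 8), ARNTL and CLOCK 0.905, CLOCK and NR1D2 0.902, PER1 and CRY2 0.892, PER2 and PER3 0.891 and PER3 and CRY1 0.878. CLOCK and DBP, the members with the lowest and the highest GC content (37.6% and 65.2%), had the most negative value of all pairs, -0.853. The part of GC content in these correlations was not tested. The genes most like the members with the largest ranges were also sought among genes with a mean of at least 5 CPM. For PER3 they were GPR107 and AHCYL1 (r = 0.994 each) and SETD5 (0.988), from 10373 genes compared, of which 183 had an r over 0.9. For DBP they were PTGIS (0.991), FGFR3 (0.989) and APCDD1L (0.976), with 137 of 10374 genes over 0.9. GPR107 ran from 84.0 CPM in E2+ketamine to 122 in E2+2S6S-HNK and PTGIS from 3.74 in vehicle to 11.6 in E2+2R6R-HNK, as means of 2 libraries.

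Some values that moved beside the members are given here, and their part in the results was not tested. The summed level of the 3 astrocyte markers, of which AQP4 had 0 counts in all libraries and ALDH1L1 was the most abundant, was 3.20 and 3.34 CPM in vehicle, 3.33 and 3.41 in E2, 3.84 and 3.96 in ketamine and 3.55 and 4.02 in 2R6R-HNK. It was 7.54 and 8.91 in 2S6S-HNK, 4.93 and 5.48 in E2+ketamine, 8.73 and 8.41 in E2+2R6R-HNK and 7.23 and 7.08 in E2+2S6S-HNK, so its higher values were in the conditions with the highest PER1. The summed mesenchymal markers were highest in E2+2R6R-HNK (24222 and 24414) and 2S6S-HNK (22576 and 23753), lay between 21168 and 22290 in vehicle, E2 and E2+2S6S-HNK, and were lowest in ketamine, 2R6R-HNK and E2+ketamine (19694 to 20243). The summed microglial markers differed between conditions too, highest in vehicle and E2+2S6S-HNK and lowest in 2R6R-HNK and E2+ketamine. Members overlap further genes as well. PER3 shares 868 bases with UTS2, which had 0 counts in every library, and CLOCK shares 76 bases with TMEM165 on the opposite strand, which rose in 6 treatments as counted, and in all 7 after the correction (0.26 to 0.52), while CLOCK fell. PER2, PER3, CRY1 and ARNTL share 188, 482, 94 and 421 exon bases with noncoding genes, and PER1 shares 30 with another gene model, so the reads of these bases are uncertain too.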

How the data were processed

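RNA-seq covered 8 conditions of the HMC3 line, grouped by label, with 2 libraries each and 16 in all. The deposited values are raw gene counts which, per the authors' notes, were made by aligning reads to hg19 with TopHat2 2.0.14 and Bowtie2 2.2.6 and counting with featureCounts 1.4.6. From them, log2 fold changes and p-values were computed with edgeR 4.0.16 (limma 3.58.1, R 4.3.3): filterByExpr, TMM scaling, a quasi-likelihood fit of 8 condition means with 8 residual degrees of freedom, and Benjamini-Hochberg adjustment over 16004 genes. The spread of each gene was drawn toward that of the other genes. This added a median of 39.6 prior degrees of freedom to the tests and intervals. A gene was called at an adjusted p of 0.05, with or without a log2 limit of 1. Standard errors and 95% intervals came from the same fit. CPM are normalized by TMM. The common coefficient of variation was 2.81%, at totals of 55300614 to 81646165 counts. The scripts were tested on simulated counts.

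GC content and transcript length came from GENCODE on GRCh37 for 96.0% of tested genes, and a loess of span 0.5 on both gave the corrected values. Symbols matched for 21539 genes, an older symbol for 1498 and none for 2333. The members and gene lists were chosen with earlier results of these data known. All members are named. Other pathway genes are named where they pass the log2 limit of 1, except for a result not reported here, and so are the 3 genes nearest in pattern for the 2 members with the largest range. Alternatives were DESeq2 1.42.0, upper-quartile scaling, testing without the low-count filter or with a stricter minimum of 10 counts, a fit of the compared conditions only, a replicate block, the correction with and without that block, and each library left out in turn. Counts of 1 to 9 were even in 65.8% of cases, against 49.9% of large counts, so a fit of halved counts, chosen after seeing the data, was added. Genes overlapping a member, marker genes and some pathway genes with their calls after the correction are named outside this rule, after their values were seen. The strandedness of the counting, its handling of reads in bases shared by genes and the time of day of harvest are not given in the sources used.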

Additional observations from a re-analysis of the deposited data

Results flagged for a closer look

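A difference between groups was noted where the effect of a drug with E2 present differed from its effect without E2 at an adjusted p of 0.05 (edgeR, 2 libraries per condition). The tests of the drugs share the vehicle and E2 libraries and are not independent. For ketamine these log2 differences were -0.44 for PER1, -0.91 for PER2, -0.56 for PER3, 0.36 for CLOCK, 0.49 for NR1D2 and -1.10 for DBP, all called after the correction for GC content and length, with PER1 at -0.26 and CLOCK at 0.24. For 2R6R-HNK they were 0.40 for PER2, 1.06 for PER3, 0.70 for CRY1, 0.72 for ARNTL, 0.84 for CLOCK, 1.15 for NR1D2 and -0.63 for DBP, of which DBP was not called after the correction (-0.19), and CLOCK (0.23) and NR1D2 (0.62) became smaller. For 2S6S-HNK they were -0.90 for PER1, -0.50 for PER2, 0.41 for PER3, 0.64 for CRY1, -0.55 for CRY2, 0.66 for ARNTL, 1.19 for CLOCK, -0.46 for NR1D1, 1.25 for NR1D2 and -1.06 for DBP. Of these, PER2 (-0.29), PER3 (0.17), CRY2 (-0.10), NR1D1 (0.08) and DBP (-0.35) were not called after the correction, and PER1 (-0.24), CRY1 (0.38), ARNTL (0.37), CLOCK (0.38) and NR1D2 (0.48) were called at smaller values. The cause of these differences was not tested.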

How the results depend on the processing

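With 2 libraries per condition and 63 to 245 counts, DBP had the widest intervals of the members. A replicate block, a filter of at least 10 counts in every library and halved counts left all 62 called member results against vehicle, 43 between drugs and 23 interactions as they were. DESeq2 lost 3, 1 and 1 of these calls and gave 0.0048 for PER3, E2+2R6R-HNK vs E2+2S6S-HNK, with the sign turned. No filter lost 1 call between drugs. A fit of the compared conditions only lost 1 call and gained 1 against vehicle and lost 1 between drugs. Library numbers were no pairing (r of -0.0258 to 0.0451 over 28 pairs of conditions). The causes of the changes below were not tested.

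Upper-quartile scaling lost 2 calls and gained 5 against vehicle, lost 1 interaction, and turned CRY1 in E2+2R6R-HNK to 0.041. It moved the median of all genes by 0.10 in E2+2S6S-HNK, and the share of calls that were higher from 40.2% to 54.3% there, from 45.2% to 55.6% in ketamine and from 65.2% to 46.9% for the ketamine interaction. With the fold limit it gave 1 member in E2, 1 member and 1 pathway gene in E2+2S6S-HNK. The fit of compared conditions only gave 1 pathway gene there, the block 1 pathway gene in 2S6S-HNK and halved counts 1 member in E2+ketamine.

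The correction for GC content and length, with or without the block, kept 38 of 70 member results against vehicle, 38 of 60 between drugs and 19 of 30 interactions. It moved the share of calls that were higher from 50.3% to 36.1% for ketamine vs 2R6R-HNK. Members called became 4 in E2 and 4 in 2R6R-HNK, 5 for E2+ketamine vs E2+2S6S-HNK, 1 for E2+2R6R-HNK vs E2+2S6S-HNK and 5 for the 2S6S-HNK interaction. With the fold limit 0 members were called in ketamine, 2R6R-HNK, 2S6S-HNK, E2+ketamine and E2+2R6R-HNK. Pathway genes became 12 in E2 and, with the limit, 1 in 2R6R-HNK, 1 in 2S6S-HNK, 0 in E2+ketamine and 1 in E2+2R6R-HNK. Signs turned against vehicle for CRY2 in E2 (-0.039, with the block -0.038), ketamine (-0.24) and 2R6R-HNK (-0.045), NR1D1 in E2 (-0.16), ketamine (-0.085) and 2R6R-HNK (-0.22), PER1 in 2R6R-HNK (-0.015, with the block -0.016) and E2+ketamine (-0.16), PER3 in 2R6R-HNK (0.014, with the block 0.016) and CRY1 in 2S6S-HNK (0.11) and E2+2R6R-HNK (0.14). Between drugs they turned for PER1 (0.019), CRY1 (-0.0083) and CLOCK (-0.059, with the block -0.057) in ketamine vs 2R6R-HNK, CRY2 (-0.14) and DBP (-0.35) in E2+ketamine vs E2+2S6S-HNK, and PER1 (-0.019) and PER3 (0.042, with the block 0.041) in E2+2R6R-HNK vs E2+2S6S-HNK. The 2S6S-HNK interaction of NR1D1 became 0.082 (with the block 0.085).

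Leaving out a library leaves 1 in its condition, which is assumed to vary like the others. Members with the fold limit were then 0 to 1 in E2, 0 to 1 in ketamine, 1 to 3 in 2R6R-HNK, 1 to 2 in E2+ketamine and 0 to 1 in E2+2S6S-HNK. Pathway genes were 1 to 4 in 2S6S-HNK, 1 to 2 in E2+ketamine, 3 to 6 in E2+2R6R-HNK and 0 to 1 in E2+2S6S-HNK. Signs turned for CRY2, ketamine vs vehicle (-0.076 to 0.13), NR1D1, ketamine vs 2R6R-HNK (-0.034 to 0.066), CLOCK, 2R6R-HNK vs 2S6S-HNK (-0.023 to 0.075), NR1D1, E2+ketamine vs E2+2R6R-HNK (-0.022 to 0.22) and PER3, E2+2R6R-HNK vs E2+2S6S-HNK (-0.037 to 0.026), none of which was called with all libraries.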
